A study of Mus musculus with 10 samples.

Results

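The genes described here are the 37 neighbours of the targeted Ddx25 locus on mouse chromosome 9. They are the listed genes of that chromosome whose start lies within 5.0 Mb of the Ddx25 start, and they number 37 of 15507 genes listed in all. The window held 45 listed genes, from which Ddx25 itself and 7 genes were left out by symbol, namely Adamts15, Prdm10, Ccdc15 and 4 RIKEN clones. On the mm10 build the window ran from base 30541848 to base 40541848, and 14 of the 37 genes lay before the Ddx25 start and 23 after it. The rule used positions and symbols, and no measured value. RefSeq held all 37 under the same symbols, and GENCODE gave 36 of them as protein-coding. Pate14, which RefSeq gives as protein-coding, had no GENCODE entry under that symbol.

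An engineered allele is inherited together with the stretch of chromosome around it, because recombination during breeding seldom parts close neighbours. The genes next to a targeted locus therefore keep the sequence of the chromosome on which the allele was made, and some of them share regulatory sequence with the targeted gene. Ddx25 encodes GRTH, a DEAD-box RNA helicase of germ cells and Leydig cells that spermatids need to complete their development. The flanking genes include sperm proteins, enzymes of RNA modification and glycosylation, a checkpoint kinase and cell surface receptors.

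Germ cells of 5 wild-type (WT) and 5 homozygous GRTH knock-in (KI) mice, all 45 days old, were dispersed from the testes with collagenase and trypsin, and each mouse gave 1 library of poly(A) RNA. In KI mice the human GRTH gene with an arginine-to-histidine missense change is carried on the targeted allele, and these mice were bred from heterozygous males with heterozygous or homozygous females. Germ cells of all stages, from spermatogonia to spermatids, were kept together. The strain of the cells in which the allele was made, and whether the WT mice were littermates of the KI mice, are not given in the sources used here. A difference carried by the Ddx25 allele and one carried by the chromosome around it therefore cannot be told apart between these genotypes.

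Libraries held 13323024 to 16422347 reads on genes in WT and 12722086 to 15500582 in KI. Values are the normalized counts of the authors, in which 1 read is worth a fixed amount in each library. Fold changes compare KI with WT on the log2(normalized count + 1) scale by limma, with Benjamini-Hochberg adjustment over the 15389 genes tested, and because of the added 1 the changes of sparsely counted genes are understated. Genes were called differentially expressed where the adjusted p was under 0.05 and the change was 1.5-fold or more. Over all genes tested 6.13% were called up and 8.22% down. An unadjusted p under 0.05 by limma was found in 5322 of the 15389. Counts in the lists below stand beside these shares. Among 9 marker lists of testis cell types, the summed levels of elongating spermatids were lower in every KI library (34713 to 69610, against 240478 to 430703 in WT), with 8 of 8 markers called down. Sums of macrophage markers (5 of 9 up) and of endothelial markers (2 of 10 up) were higher in KI, with no overlap of the libraries. Vwf had the highest count of the endothelial markers in every library, and the endothelial sum without Vwf was not tested. Round spermatid sums were lower in every KI library, with 1 of 6 markers called down (Acrv1 left out). By limma 4 of the 6, all lower in KI, had an adjusted p under 0.05, beside 22.9% of all genes tested. Sums of spermatocyte and peritubular myoid markers were lower too, each through 1 gene. Pgk2 (16188 to 26631 in WT, 6536 to 13790 in KI) was the only spermatocyte marker of 8 that was called, and the list had a median log2 fold change of −0.046. Actg2 was the only myoid marker of 5 tested that was called down (2585 to 4038 in WT, 915 to 1437 in KI), while Acta2 (0.78) and Des (1.04) were called up. In WT libraries Acta2 (27.7 to 55.6), Myh11 (36.1 to 60.4) and Tagln (42.9 to 78.1) lay far below Actg2. The myoid sum thus mostly follows Actg2, and whether Actg2 comes from myoid cells here was not tested. Leydig cell markers (3 of 7 up) were higher with some overlap (exact permutation test, p = 0.0159, 0.0204 after adjustment over 9 lists). Sums for spermatogonia and Sertoli cells overlapped, with 0 of 7 and 0 of 8 markers called by limma, edgeR or DESeq2, and 2 and 0 of them at an unadjusted p under 0.05.

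Ddx25, at chr9:35541848-35558470 on the minus strand, measured 7615, 7782, 5198, 11101 and 9458 normalized counts in WT libraries 1 to 5. In KI libraries 1 to 5 it measured 146, 194, 161, 2.88 and 1.84, the last values resting on 3 and 2 reads. Every KI library lay far below every WT library, with a log2 fold change of −7.84 ± 1.03 (SE, n = 5 per genotype, adjusted p = 5.63e-05). The libraries numbered 1 to 3 and those numbered 4 and 5 form sets that differ in read quality in the sequencing summary of the study. KI libraries of the first set thus kept some reads on mouse Ddx25 and those of the second almost none. Reads were counted on the mouse gene, while the KI allele carries the human one. How far reads of the human sequence reach the mouse gene was not tested, so that these values do not give the level of the KI transcript.

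All 37 flanking genes passed the filter on low values and were tested. Of these, 9 (24.3%) were called, 4 up and 5 down in KI, where 14.4% of all genes tested were called (6.13% up and 8.22% down). The genes called down were Pus3, Pate14, Chek1, Spa17 and Tmem225, and those called up were St3gal4, Slc37a2, Robo4 and Vwa5a. In 9 genes (24.3%) the 5 KI libraries lay wholly above or wholly below the 5 WT libraries, beside 17.7% of all genes tested. Of the 9 called genes 8 were so parted and Pate14 was not, while Pknox2 was parted without reaching the fold threshold. The median log2 fold change of the flanking genes was −0.06, beside 0.03 over all genes tested, and it was 0.17 beside 0.25 when libraries were scaled to their totals. Under that scaling the genotypes did not overlap in 9 of the 37 genes, beside 24.9% of all genes tested. It called 4 flanking genes up and 4 down, beside 2144 up and 789 down among the 15389 genes tested. The remaining 28 genes had log2 fold changes from −0.58 to 0.53, and in 23 of them the change was under 0.3 in either direction. From counts of these mixed preparations alone, fewer cells of a type and less RNA per cell cannot be told apart. For elongating spermatids, the paper describes from earlier work that KI mice have none, as their round spermatids do not elongate.

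Called genes lay in each of the distance bands compared here, and their placement along the window was not tested. Within 1 Mb of the Ddx25 start 2 of 10 genes (20%) were called, from 1 to 2.5 Mb 5 of 17 (29.4%), and beyond 2.5 Mb 2 of 10 (20%). On the side before Ddx25 only St3gal4 was called among 14 genes (7.14%), and on the side after it 8 of 23 (34.8%) were. No listed member started 1 to 2.5 Mb before Ddx25, so that the sides differ in how close their genes lie, and the difference between the sides was not tested. In the next 5 Mb beyond the window 2 of 11 genes (18.2%) were called on the side before and 14 of 51 (27.5%) on the side after. Elsewhere on chromosome 9, those stretches included, the share was 14.6% of 806 genes, and on the other chromosomes 14.3% of 14538.

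**Figure D1:**
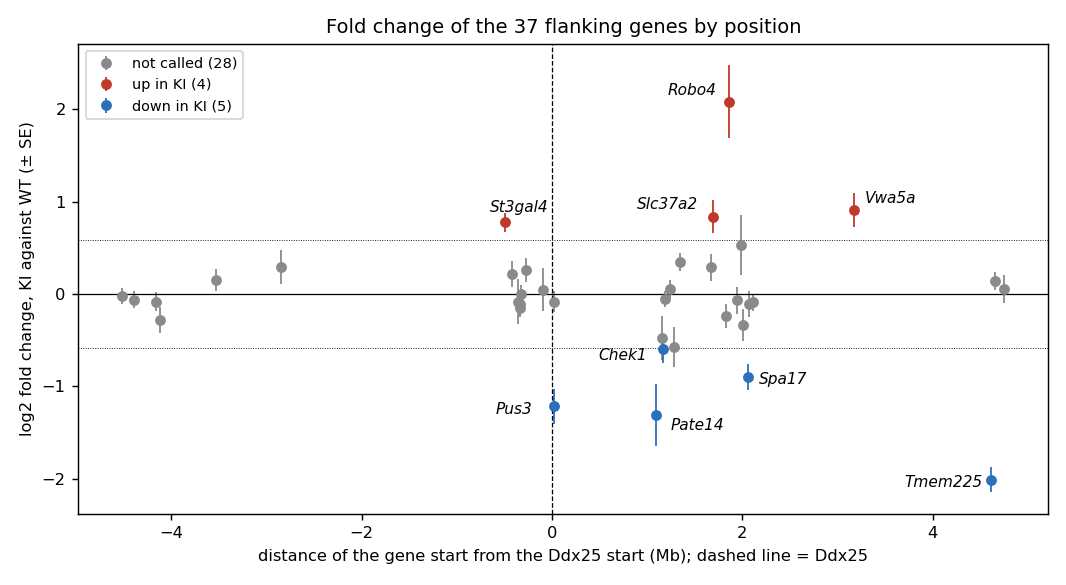
Log2 fold change (KI against WT, on the log2(normalized count + 1) scale, ± SE, n = 5 per genotype) of each of the 37 flanking genes against the distance of its start from the Ddx25 start in Mb, with dotted lines at the 1.5-fold threshold. The 4 genes called up and the 5 called down lie mostly after Ddx25, and the 28 uncalled genes lie between −0.58 and 0.53.

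At the ends of the window no gene was called. Zbtb44, a zinc finger protein and the first member before Ddx25, measured 2376 ± 130 normalized counts in WT and 2350 ± 239 in KI (SD, n = 5 each), a log2 difference of −0.02 (adjusted p = 0.902). Snx19, a sorting nexin just outside on that side, differed by 0.14 (adjusted p = 0.481). Gramd1b, a sterol transfer protein and the last member after Ddx25, differed by 0.05 (adjusted p = 0.853), and Clmp, an adhesion molecule just beyond it, by −0.30 (adjusted p = 0.354).

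Pus3 is the closest neighbour of Ddx25. It encodes a pseudouridine synthase that modifies uridines of transfer RNA, and it lies at chr9:35558560-35567401 on the plus strand, head to head with Ddx25. The transcription starts of this pair are 89 bases apart. Further pairs of the window are arranged in the same way with 250 bases or fewer between their starts, namely Foxred1 with Srpr (147 bases), Fam118b with Rpusd4 (75 bases) and Spa17 with Siae (99 bases). These starts are those of the authors' gene coordinates, and exons of Spa17 and Siae in GENCODE overlap by 391 bases. The stretch between the starts of each pair is printed here because both genes of a pair face it. Each runs 5′ to 3′ on the plus strand of mouse GRCm38.p6 as given by RefSeq, and capitals mark a GC box (GGGCGG) or a CCAAT box on either strand.
Ddx25 and Pus3, chr9:35558471-35558559: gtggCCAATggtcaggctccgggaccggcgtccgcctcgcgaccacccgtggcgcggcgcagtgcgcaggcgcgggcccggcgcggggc
Spa17 and Siae, chr9:37613722-37613820: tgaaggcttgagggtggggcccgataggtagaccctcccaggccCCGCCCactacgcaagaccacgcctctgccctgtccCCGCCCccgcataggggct
Foxred1 and Srpr, chr9:35211056-35211202: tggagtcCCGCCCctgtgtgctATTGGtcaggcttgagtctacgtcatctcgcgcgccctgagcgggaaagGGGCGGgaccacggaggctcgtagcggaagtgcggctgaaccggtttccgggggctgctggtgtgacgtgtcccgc
Fam118b and Rpusd4, chr9:35267806-35267880: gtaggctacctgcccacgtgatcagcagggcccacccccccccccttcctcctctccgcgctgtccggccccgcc

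The stretch between Ddx25 and Pus3 is 82% G and C with 16 CpG dinucleotides, and it holds 1 CCAAT box next to the Ddx25 end. A CCAAT box occurs in 17.2% of the 32851 promoters of the RefSeq table over the same length. The stretch of Spa17 and Siae holds 2 GC boxes, and so does that of Foxred1 and Srpr, which also holds 1 CCAAT box. A GC box occurs in 24.6% of promoters over 99 bases and in 28.4% over 147 bases. No match was found between Fam118b and Rpusd4. The letters TATAAA and TGACGTCA, searched on both strands as well, were found in none of these 4 stretches, and occur in 5.1% and 1.08% of promoters over 89 bases. A match is a run of letters and not a measured binding site, and whether the KI allele keeps the stretch beside Ddx25 is not given in the sources used here.

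Pus3 measured 131, 119, 100, 173 and 132 normalized counts in WT libraries 1 to 5, and 55.7, 67.8, 36.0, 61.5 and 58.9 in KI. Every KI library was below every WT library, and the mean fell 2.34-fold, from 131 ± 26.5 to 56.0 ± 12.0 (SD, n = 5). Its log2 fold change was −1.22 ± 0.19 (SE, adjusted p = 2.29e-04), with −1.16 in libraries 1 to 3 and −1.31 in libraries 4 and 5. Pus3 thus fell in both sets, while the count on mouse Ddx25 fell by 5.34 on the log2 scale in the first set and by 11.59 in the second. Whether strand was used in counting is not stated, and 2618 of the 2972 exonic bases of Pus3 (88.1%) lie within exons of Hyls1 on the other strand, so that the reads of Pus3 are uncertain. Hyls1, a centriole protein of cilia, measured 2164 ± 93.6 in WT and 2066 ± 383 in KI, a log2 difference of −0.08 (adjusted p = 0.649).

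Of the remaining head-to-head pairs, Spa17 with Siae had 1 gene called and the others had none. Spa17 fell, and Siae, its partner, had 193 ± 41.9 normalized counts in KI against 205 ± 11.6 in WT (SD, n = 5; log2 difference −0.11, adjusted p = 0.639). Siae encodes a sialate acetylesterase. Foxred1, an assembly factor of respiratory complex I, differed by −0.11 (adjusted p = 0.611) and Srpr, the alpha subunit of the signal recognition particle receptor, by −0.16 (adjusted p = 0.194). Fam118b had a log2 difference of 0.00 (adjusted p = 0.988), and Rpusd4, a mitochondrial pseudouridine synthase, differed by 0.26 (adjusted p = 0.166). Among all genes tested there were 675 pairs that lay head to head within 250 bases. At least 1 gene was called down in 81 of them, and both in 13, among them Ddx25 (as counted on the mouse gene) with Pus3.

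**Figure D2:**
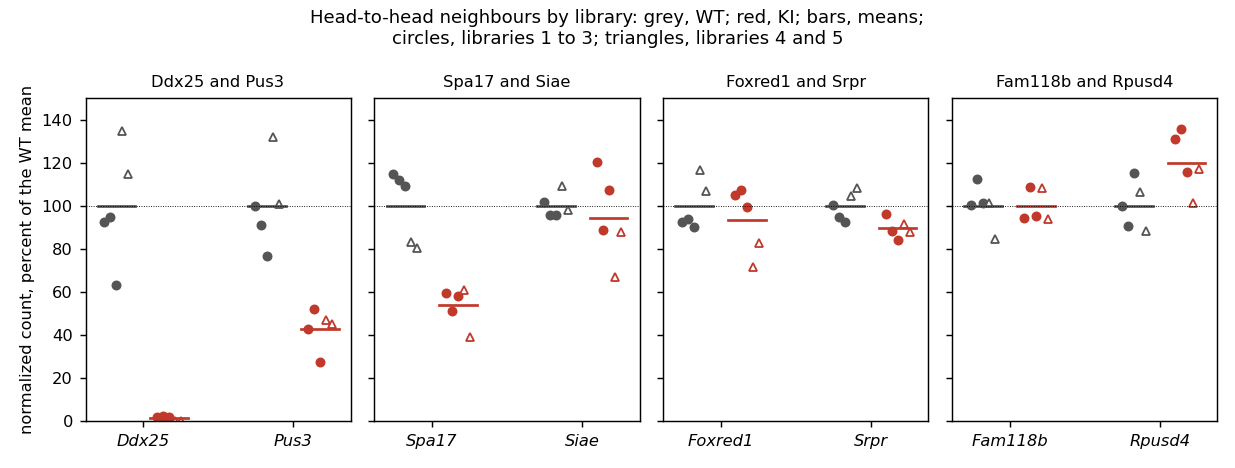
Normalized count of the 4 head-to-head pairs in each library as a percent of the WT mean of the gene (grey, WT; red, KI; circles, libraries 1 to 3; triangles, libraries 4 and 5; bars, means of n = 5). Ddx25 and Pus3 are both lower in every KI library, Spa17 is lower without Siae, and the genotypes overlap in the genes of the other pairs.

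Further neighbours within 1 Mb lay on the side before Ddx25. Cdon, a co-receptor for hedgehog ligands and the closest of them, ranged from 46.1 to 88.9 normalized counts in WT and from 47.1 to 106 in KI (log2 difference 0.05, adjusted p = 0.914). Dcps, the scavenger decapping enzyme, differed by 0.22 (adjusted p = 0.290), and Tirap, an adaptor of Toll-like receptors, by −0.09 (adjusted p = 0.846). St3gal4 was the only called gene among these 8. It encodes a sialyltransferase that adds α2,3-linked sialic acid to galactose on glycoproteins and lies 495.3 kb before the Ddx25 start. WT libraries 1 to 5 held 173, 168, 188, 213 and 183 normalized counts of St3gal4, and KI libraries 350, 289, 341, 291 and 313. All KI libraries were higher than all WT libraries, and the mean rose 1.72-fold from 185 ± 17.6 to 317 ± 27.9 (SD, n = 5; log2 fold change 0.78 ± 0.11 SE, adjusted p = 8.66e-05). Of its exonic bases 14.1% lie within exons of a listed noncoding gene on the other strand.

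Of the 4 genes listed under sperm and epididymis, a list that leaves out Pate14, 2 were called down and 1 up. Over all genes tested 8.22% were called down and 6.13% up. Tmem225 had the largest fall of the 37 flanking genes. It encodes a membrane protein of sperm that binds and inhibits protein phosphatase 1, and lies at chr9:40148122-40150878. WT libraries 1 to 5 held 1137, 1161, 951, 895 and 975 normalized counts of Tmem225, and KI libraries 276, 306, 280, 237 and 179. No KI library came near a WT library, and the mean fell 4.00-fold, from 1024 ± 118 to 256 ± 49.3 (SD, n = 5). The log2 fold change was −2.01 ± 0.14 (SE, adjusted p = 1.07e-07), the lowest adjusted p among the 37 genes.

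Spa17 encodes a protein of the sperm tail that binds A-kinase anchoring proteins. It measured 10426, 10165, 9917, 7539 and 7309 normalized counts in WT libraries 1 to 5, and 5413, 4655, 5273, 5511 and 3538 in KI. KI libraries were all lower, though WT libraries 4 and 5 were below WT libraries 1 to 3. The mean fell 1.86-fold from 9071 ± 1517 to 4878 ± 820 (SD, n = 5; log2 fold change −0.90 ± 0.14 SE, adjusted p = 2.89e-04). Spa17 shares 391 of its 1061 exonic bases (36.9%) with Siae on the other strand.

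Acrv1 encodes SP-10, a protein of the acrosomal matrix made from the round spermatid stage on. It was not called: WT libraries 1 to 5 held 4161, 3980, 3707, 2694 and 2698 normalized counts and KI libraries 3518, 3063, 3340, 1792 and 1329. In each set the KI libraries were below the WT libraries, but KI libraries 1 to 3 were above WT libraries 4 and 5. Its log2 difference was −0.48 ± 0.24 (SE, adjusted p = 0.174), −0.26 in libraries 1 to 3 and −0.80 in libraries 4 and 5. With the library number as a block the same difference had an adjusted p of 0.00539, still short of the fold threshold. Among 12 other acrosomal genes 2 were called down and none up, with a median log2 fold change of −0.37. At an unadjusted p under 0.05 by limma there were 9 of the 12, beside 5322 of all 15389 genes tested. At an adjusted p under 0.05 there were 6, beside 22.9% of all genes tested. Those called were Spam1, a sperm surface hyaluronidase (−0.95, adjusted p = 9.01e-06), and Zp3r, a zona pellucida receptor (−0.63, adjusted p = 0.00628).

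Vwa5a, a protein with a von Willebrand factor A domain, moved in the other direction. It measured 50.2, 33.5, 49.5, 47.1 and 40.5 normalized counts in WT libraries 1 to 5 and 92.9, 82.6, 96.8, 55.8 and 95.7 in KI. KI library 4 was the closest to the WT libraries and still above all of them. The mean rose 1.92-fold from 44.2 ± 7.09 to 84.7 ± 17.1 (SD, n = 5; log2 fold change 0.91 ± 0.19 SE, adjusted p = 0.00230). Markers of round spermatids summed to 9117 to 11901 normalized counts in KI and 13610 to 15333 in WT, and the lower sums in KI for round and elongating spermatids moved with the falls of Tmem225 and Spa17. Their part in these falls was not tested.

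**Figure D3:**
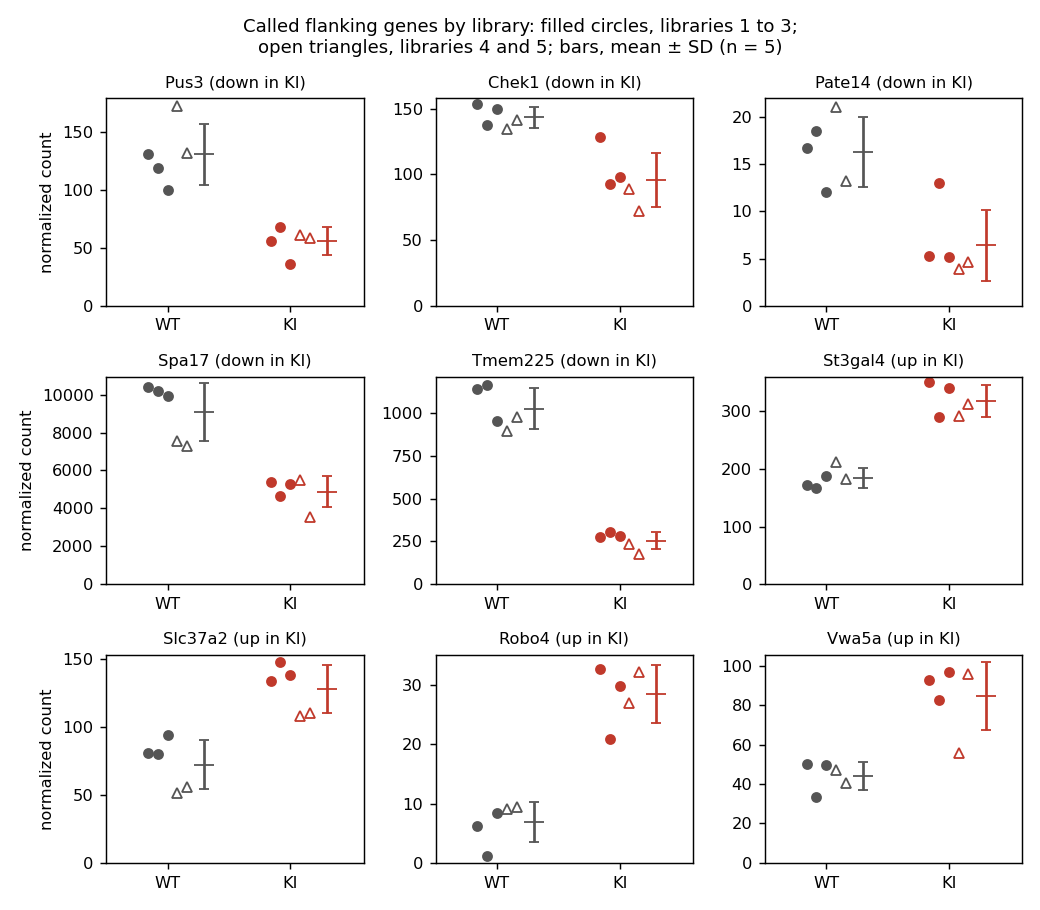
Normalized counts of the 9 called flanking genes in each WT and KI library (filled circles, libraries 1 to 3; open triangles, libraries 4 and 5; bars, mean ± SD, n = 5), with each vertical axis starting at 0. The genotypes are apart in 8 genes and overlap in Pate14, where KI library 2 at 13.0 lies above WT library 3 at 12.1.

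Pate14 and Chek1 were the other genes called down. Pate14 belongs to the PATE family of small secreted cysteine-rich proteins of the male reproductive tract. It rested on 10 to 21 reads per WT library and 4 to 15 per KI library. Normalized counts of Pate14 were 16.7, 18.5, 12.1, 21.1 and 13.2 in WT libraries 1 to 5 and 5.31, 13.0, 5.15, 3.85 and 4.60 in KI. Genotypes overlapped through KI library 2, and reads of Pate14 are uncertain where counting could split them among related copies of the family. The log2 fold change was −1.32 ± 0.34 (SE, n = 5, adjusted p = 0.0101).

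Chek1 encodes the checkpoint kinase that acts downstream of ATR when DNA replication stalls or breaks persist, and it is active in spermatocytes. WT libraries 1 to 5 held 154, 138, 150, 134 and 141 normalized counts of Chek1, and KI libraries 128, 93.0, 97.8, 88.5 and 71.8. All KI libraries were below all WT libraries, with KI library 1 close to them. The mean fell 1.495-fold, from 143 ± 8.18 to 95.9 ± 20.6 (SD, n = 5). The log2 fold change by limma was −0.60 ± 0.15 (SE, adjusted p = 0.00799). It was barely past the fold threshold, and the ratio of the means was just short of 1.5. Without KI library 4, KI library 5, WT library 1 or WT library 3 in turn the fold change was −0.58 to −0.50 on the log2 scale, short of the threshold, and the call was lost, as it was by edgeR and DESeq2. Of 11 further genes of the ATR and CHK1 checkpoint 0 were called by limma, edgeR or DESeq2, with 2 at an unadjusted p under 0.05 and a median log2 fold change of −0.00. Members of the DNA damage and chromatin group beside Chek1 were not called: Nfrkb, a subunit of the INO80 remodeller, differed by −0.08, Msantd2 by −0.07 and Tbrg1, a growth regulator, by −0.09.

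Genes of trafficking, glycosylation and secretion were the largest group, with a median log2 fold change of −0.06. Of these 9 genes 2 were called, both up, beside 14.4% of all genes tested (6.13% up). The called genes were St3gal4 and Slc37a2. Slc37a2, a sugar-phosphate exchanger of the endoplasmic reticulum that macrophages express strongly, measured 80.5, 79.8, 94.2, 51.2 and 55.5 normalized counts in WT libraries 1 to 5 and 134, 148, 138, 108 and 110 in KI. Every KI library was above every WT library, and libraries 4 and 5 were the lowest of either genotype. The mean rose 1.76-fold from 72.2 ± 18.2 to 127 ± 17.6 (SD, n = 5; log2 fold change 0.84 ± 0.18 SE, adjusted p = 0.00317). Macrophage markers summed to 745 to 965 normalized counts in WT and 1118 to 1447 in KI (exact permutation test, p = 0.00794, 0.0119 after adjustment over 9 lists), with 5 of 9 markers called up. Their part in the rise of Slc37a2 was not tested.

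The other members of that group were not called, with log2 differences from −0.28 to 0.05. The lowest was that of Tmem45b (adjusted p = 0.171), a transmembrane protein. Stt3a, the catalytic subunit of one oligosaccharyltransferase, measured 1619 ± 102 normalized counts in WT and 1560 ± 156 in KI (SD, n = 5; log2 difference −0.06, adjusted p = 0.705). Aplp2, a relative of the amyloid precursor protein, differed by −0.06 and Ei24, a protein of the endoplasmic reticulum, by 0.05. Among 14 further genes of the oligosaccharyltransferase and of the signal recognition particle and its receptor 0 were called by limma, edgeR or DESeq2. Their median log2 fold change was −0.07. Of these 14 genes 5 had an unadjusted p under 0.05 by limma, beside 5322 of all 15389 genes tested.

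Robo4 had the largest rise of the 37 genes. It is a roundabout receptor of endothelial cells and lies 1860.1 kb after the Ddx25 start. It measured 6.28, 1.16, 8.45, 9.03 and 9.41 normalized counts in WT libraries 1 to 5, which rest on 33 reads in all, and 32.7, 20.9, 29.9, 26.9 and 32.2 in KI, which rest on 153. Every KI library was above every WT library, and the ratio of the means was 4.15 (6.87 ± 3.41 in WT and 28.5 ± 4.86 in KI, SD, n = 5). The log2 fold change was 2.08 ± 0.40 (SE, adjusted p = 0.00132), and it was 1.66 to 2.23 when each library was left out in turn.

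Esam, an adhesion molecule of endothelial tight junctions 1986.2 kb after the Ddx25 start, ranged from 6.28 to 14.1 normalized counts in WT and from 7.69 to 20.2 in KI. The genotypes overlapped, and its log2 difference was 0.53 ± 0.32 (SE, adjusted p = 0.271). Summed endothelial markers were 408 to 539 normalized counts in WT and 590 to 1039 in KI (exact permutation test, p = 0.00794, 0.0119 after adjustment over 9 lists). Cdh5, the cadherin of endothelial junctions (log2 fold change 0.66, adjusted p = 0.00907), and Vwf, the von Willebrand factor (1.05, adjusted p = 0.00211), were called up, and 8 of 10 markers were not, among them Tek, Kdr and Flt1. The median log2 fold change of the 10 markers was 0.21, and no marker was at 0 in any library. Among the 8 uncalled markers the differences ran from −0.33 (Egfl7, adjusted p = 0.452) to 0.62 (Eng, adjusted p = 0.0638). Vwf had the highest count of the 10 in every library (251 to 595 in KI). The summed values thus weigh Vwf most, and a sum without Vwf was not tested. Whether endothelial RNA had a part in the rise of Robo4 was not tested. Hepacam, an immunoglobulin-type adhesion molecule known from glia, differed by −0.24 (adjusted p = 0.205).

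Of the 4 transcription factors of the window 0 were called by limma, edgeR or DESeq2, with 1 at an unadjusted p under 0.05 and a median log2 difference of 0.22. Pknox2, a homeodomain protein of the TALE class, measured 1132, 1311, 1343, 979 and 1292 normalized counts in WT libraries 1 to 5 and 1471, 1487, 1518, 1681 and 1510 in KI. All KI libraries were above all WT libraries (log2 fold change 0.35 ± 0.10 SE, n = 5, adjusted p = 0.0185), and it was the only flanking gene past the p threshold without the fold threshold. With the library number as a block Acrv1 (adjusted p = 0.00539), Fez1 (0.0484) and Tmem218 (0.0381) were past the p threshold alone as well. Without the block 10 of 37 genes, Pknox2 included, had an adjusted p under 0.05, beside 22.9% of all genes tested. Ets1, an ETS factor of lymphoid and endothelial cells, differed by 0.29 (adjusted p = 0.284) and Zfp202, a zinc finger repressor, by 0.14 (adjusted p = 0.359). Among 12 genes of a list of endothelial and ETS factor genes, Cdh5 was the only one called.

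RNA modification and decay had 1 of 3 genes called, Pus3, beside 14.4% of all genes tested. The 10 other pseudouridine synthases of the table, which lie elsewhere in the genome, had a median log2 fold change of 0.00. By limma, edgeR or DESeq2 0 of them were called, and 0 had an unadjusted p under 0.05. Likewise 0 of the 6 genes of signalling and the cytoskeleton were called by any of these tests, with 1 at an unadjusted p under 0.05. That was Fez1, an adaptor of kinesin transport, with 71.2 to 117 normalized counts in WT and 39.6 to 85.2 in KI (log2 difference −0.58 ± 0.22 SE, n = 5, adjusted p = 0.0671). It passed both thresholds without KI library 1 (−0.67, adjusted p = 0.0484) and without KI library 2 (−0.70, adjusted p = 0.0358). Nrgn, a calmodulin-binding protein, differed by −0.34, Tmem218, a protein of cilia, by 0.29, and Arhgap32, a GTPase-activating protein, by 0.15, with adjusted p from 0.166 to 0.419.

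Because the KI libraries of the 2 sets differed in Ddx25, the fold changes of the flanking genes were compared between the sets. The 9 called genes had the same sign in both sets, and 25 of all 37 did. The interaction of genotype and library set by limma passed an adjusted p of 0.05 in 0 of 37 genes, beside 0.247% of all genes tested. At an unadjusted p under 0.05 it held 6 genes, Foxred1, Acrv1, Hyls1, Zbtb44, Siae and Gramd1b, beside 16.1% of all genes. Foxred1 had the lowest p of these, with log2 differences of 0.17 in libraries 1 to 3 and −0.54 in libraries 4 and 5 (interaction −0.71, adjusted p = 0.106). Acrv1 followed with an interaction of −0.55 (adjusted p = 0.123), which passed when KI library 4 was left out (−0.76, adjusted p = 0.0143). That fit has KI library 5 as the only KI library of its set, which is assumed to vary like the other groups. Pus3 had an interaction of −0.15 (adjusted p = 0.871).

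**Figure D4:**
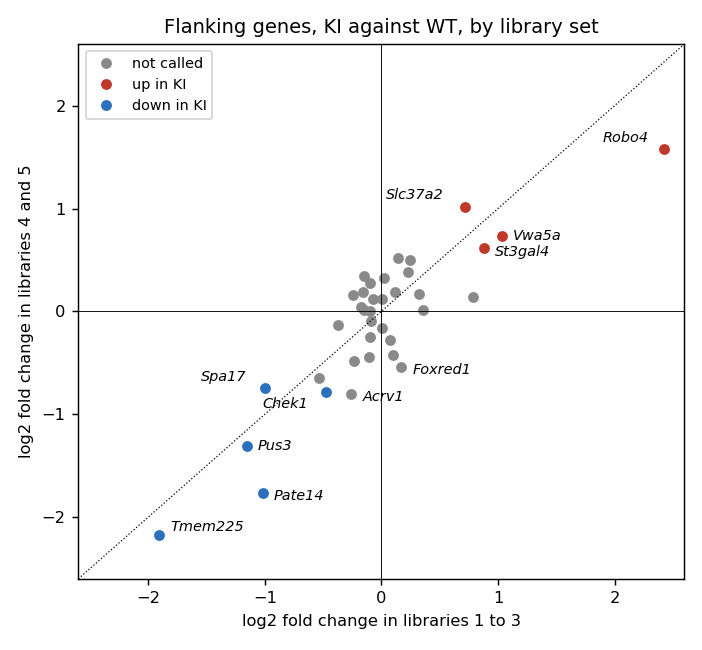
Log2 fold change (KI against WT) of the 37 flanking genes in libraries 4 and 5 (vertical axis, n = 2 per genotype) against libraries 1 to 3 (horizontal axis, n = 3 per genotype), with a dotted line at equal values. All 9 called genes keep their sign, with Pus3 at −1.16 and −1.31, and Foxred1 and Acrv1 lie below the line.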

How the data were processed

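Poly(A) RNA of germ cells was sequenced as 1 library per mouse from 5 WT and 5 KI mice, with paired-end reads. The authors deposited 1 table of signal values, genes by libraries. They trimmed the reads, aligned them to mm10 with STAR, counted them on RefSeq genes with Partek's E/M model and scaled each library by 1 factor (the submitters' processing notes name DESeq2). Dividing by the value of 1 read gave whole reads (within 0.1) for 100% of values under 5000 reads. Every column matched 1 library.

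Log2(value + 1) was fitted with limma (version 3.58.1, R 4.3.3) with a variance trend on genes passing filterByExpr of edgeR (version 4.0.16), and p-values were adjusted by Benjamini-Hochberg. Called means that the adjusted p was under 0.05 and the change 1.5-fold or more, the study's thresholds. Other fits included edgeR on the recovered reads, which called 950 genes up and 1293 down, and DESeq2 (version 1.42.0), with 1028 and 1305 (limma, 944 and 1265). Exact permutation tests (two-sided, 252 arrangements, smallest p 0.00794) compared single values. Each library is 1 mouse, so that p-values measure the spread between mice. A gene with 0 reads in a library could have up to 3 reads, or 2.61 to 3.62 normalized counts, for counting error only. The sets of libraries 1 to 3 and 4 and 5 differ in read quality in the study's sequencing summary. They were compared because Ddx25 reads were already known from these data to differ between their KI libraries.

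The flanking genes, role lists, marker lists and context lists were chosen with earlier results of these data known, and lists leave out the members. Named are each called gene, the nearest 5 on each side, the genes at the window's ends and the members of the role lists, which hold every member between them but Fam118b and Pate14. No listed member fell under channels or olfactory receptors. Gene roles are background knowledge. Once centred by genotype, WT and KI libraries sharing a number had correlations of 0.306, 0.105, 0.280, 0.216 and 0.462. Those of unlike number had 0.0113 to 0.287 within a set and −0.318 to −0.0357 across sets. The number was used as a block in an alternative, and a pairing by number was not tested apart from the set. Replicates differed by a chi-square of 2.66 to 46.7 per degree of freedom, and no library repeated another. Gene ends are printed 1 base before the table's Stop, and start and end then equal those of RefSeq for 20 of the 37 genes.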

Additional observations from a re-analysis of the deposited data

Results flagged for a closer look

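In 76 groups of 5 libraries (the 37 flanking genes and Ddx25 in each genotype), 5 held a library far from the others by Dixon's criterion, and chance alone flags about 1 in 20 groups. The normalized count of Pate14 in KI library 2 was 13.0, with the next highest KI library at 5.31. Aplp2 measured 4644 in KI library 5, with the next at 4207. Tmem45b measured 154 in KI library 4, with the next at 111, and Pknox2 measured 1681 in the same library, with the next at 1518. For Tmem218 WT library 4 held 249 normalized counts, with the next WT library at 185.

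The genotype difference of Ddx25 itself differed between the library sets, by −6.25 on the log2 scale (limma, interaction of genotype and library set). The sets were compared because Ddx25 was already known to differ between them. This value is therefore a description, and no p-value is given for it. Its log2 fold change was −5.34 in the first set and −11.59 in the second, where the added 1 bears on values resting on 2 and 3 reads. Pus3, 89 bases away, fell in both sets.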

How the results depend on the processing

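Ddx25 stayed called in all 23 alternatives. Of the 9 called flanking genes, Pus3, Slc37a2, Robo4, Spa17 and Tmem225 kept their call in every alternative that gave a value, and none changed sign. Chek1 lost it in 11 of 23, by edgeR and DESeq2 too, and at an adjusted p under 0.01 Pate14 lost it. Of the 28 uncalled genes 26 were called in none, and the fitted difference of 14 changed sign in at least 1. With the library number as a replicate block, 4 genes were called up and 5 down, as without it, the same genes, and no call changed, though Acrv1, Fez1 and Tmem218 passed the p threshold alone.

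In libraries 1 to 3 alone 3 genes were called down, without Chek1 (−0.48) and Pate14 (−1.02). There 20 of the 37 genes did not overlap, beside 43.9% of all genes tested. In libraries 4 and 5 alone 2 were called up, without St3gal4 (0.61) and Vwa5a (0.73). Chek1 (−0.78) and Pate14 (−1.76) were not called there, and Acrv1 was called down. In that set 25 of the 37 genes did not overlap, beside 55.2% of all genes tested, and the median log2 fold change was 0.017. With fewer libraries, groups part more often. Library totals moved the median of all genes to 0.25 and that of the flanking genes to 0.17, and turned the split of all calls to 2144 up and 789 down. The upper quartile gave medians of 0.12 and 0.034. Under library totals the interaction passed in 2 genes, Foxred1 and Acrv1.

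Within 2 Mb of Ddx25 3 genes were called down, and within 1 Mb 1 was up, 1 down and 2 did not overlap, out of fewer genes. Leaving out each library in turn gave 4 genes up, 4 to 6 down, a median of −0.075 to −0.026 and 0 to 1 interactions, where runs without a library numbered 4 or 5 leave an arm of 1 sample, assumed to vary like the others. Where genes under a mean of 50 normalized counts were left out, Robo4, Pate14, Esam and Tirap were not tested. Low reads limit Robo4, Pate14 and Esam.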
